A study of Mus musculus with 8 samples.

Results

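The 48 genes described here encode DEAD and DEAH box RNA helicases, of 18193 genes measured in mouse embryonic stem cell (ESC) lines with and without Zfp281. They are all genes whose symbol in the array annotation is Ddx or Dhx followed by a number, apart from 3 genes that are not reported here and the Y-linked member, and they divide into 32 Ddx and 16 Dhx symbols. Each gene was represented by 1 probe set, a group of oligonucleotides that reports 1 transcript, chosen as the one with the highest mean over the 8 arrays. Zfp281 is a zinc finger transcription factor of ESCs. RNA was taken from 3 Zfp281 null lines (7, 3.34 and 3.38), 2 heterozygous lines (5 and 3.1) and 3 wild-type lines (3, 3.2 and 3.3). Each line was measured on 1 Affymetrix whole-genome mouse array. In the targeted allele both exons of Zfp281 are replaced by a floxed neomycin resistance cassette. The lines were derived from blastocysts of heterozygous matings, with 1 array each, so p-values measure the spread between these arrays. All were kept with serum and leukaemia inhibitory factor on primary mouse embryonic fibroblasts, whose RNA can be part of each sample. In such bulk samples fewer cells of a type and less RNA per cell cannot be told apart.

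DEAD and DEAH box proteins use ATP to unwind RNA or to strip proteins from it. DEAD box members open short duplexes locally and act in ribosome assembly, splicing, mRNA export and translation, whereas DEAH box members move along the RNA strand and drive the rearrangements of the spliceosome. Many have yeast counterparts, and their roles below are partly known from yeast.

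Zfp281 itself had log2 values of 3.64, 5.06 and 5.23 in the null lines, 6.69 and 6.97 in the heterozygous lines, and 6.88, 7.93 and 6.72 in the wild-type lines. All null lines were below all others, although the probe set was still called present in 2 of 3 null lines. The cause of these present calls was not tested. Of 12 ESC markers, 11 were called present in every line, and their mean log2 value was 9.40 to 9.47 in null lines, 8.90 to 9.13 in heterozygous lines and 8.52 to 8.91 in wild-type lines. Null over wild-type, the ESC markers had 10 of 12 higher means, 1 called by limma, and a median of 0.68. The summed level of 19 fibroblast markers, as the mean of their log2 values in a line, was 5.82 to 5.95 in null lines, 6.27 to 6.66 in heterozygous lines and 5.89 to 6.64 in wild-type lines, and 11, 14 and 11 of the 19 markers were called present in all lines of those genotypes, with 3, 1 and 2 in no line. Of these 19 markers 16 had lower means in null than in wild-type lines, with none called by limma and a median of −0.46. Present calls covered 32.9 to 35.3% of probe sets in null lines, 28.4 to 32.3% in heterozygous lines and 30.4 to 33.2% in wild-type lines. The arrays also carry control probe sets near either end of the Gapdh and beta-actin transcripts, and the 3′ minus 5′ difference widens as RNA is shortened. It was 3.30 ± 0.55 on the log2 scale in null lines (SD, n = 3), 4.64 ± 0.22 in heterozygous lines (SD, n = 2) and 4.61 ± 0.34 in wild-type lines (SD, n = 3), and 79.1% of its variance lay between genotypes. This difference and the ESC markers separated the null lines from all others, whereas the fibroblast markers overlapped between null and wild-type lines. The fibroblast markers did separate null from heterozygous lines. Of the 19, 17 had lower means in null than in heterozygous lines, with a median of −0.60 and none called by limma. The part of the markers in the differences below was not tested, and fits with the 3′ minus 5′ difference are given beside the main genes. Since the 3′ minus 5′ difference did not overlap between null and other lines, such fits cannot tell it apart from genotype. Their values are not read as corrected effects.

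Among the helicase genes, Dhx16 was the only one called in null against wild-type lines, and it was higher. Ddx27 and Ddx56, both helicases of nucleolar ribosome assembly, were the other genes more than 2-fold higher in null lines, without reaching an adjusted p under 0.05, and no helicase gene was more than 2-fold lower. At the 5′ end of these 3 genes the RefSeq table (GRCm38.p6) gives the following 250 bases up to the transcription start, printed because these are the genes with the highest fold changes. Capitals mark GC boxes, ETS cores, CCAAT boxes and NRF1 letters on either strand.
Dhx16: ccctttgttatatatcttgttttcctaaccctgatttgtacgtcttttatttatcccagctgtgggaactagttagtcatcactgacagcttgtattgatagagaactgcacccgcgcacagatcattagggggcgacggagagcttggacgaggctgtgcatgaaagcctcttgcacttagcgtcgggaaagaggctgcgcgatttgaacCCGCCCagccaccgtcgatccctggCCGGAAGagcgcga
Ddx27: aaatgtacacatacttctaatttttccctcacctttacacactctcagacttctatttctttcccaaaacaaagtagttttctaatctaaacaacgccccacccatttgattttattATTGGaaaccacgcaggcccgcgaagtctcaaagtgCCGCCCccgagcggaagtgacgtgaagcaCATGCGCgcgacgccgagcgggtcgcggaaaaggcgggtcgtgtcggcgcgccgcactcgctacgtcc
Ddx56: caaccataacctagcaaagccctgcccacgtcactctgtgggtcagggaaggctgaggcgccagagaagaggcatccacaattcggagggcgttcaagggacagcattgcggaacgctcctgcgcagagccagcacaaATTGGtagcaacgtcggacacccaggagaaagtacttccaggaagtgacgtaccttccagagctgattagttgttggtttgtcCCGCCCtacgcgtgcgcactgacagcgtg
These windows lie at chr17:35879528-35879777 on the plus strand, chr2:167015063-167015312 on the plus strand and chr11:6267730-6267979 on the minus strand. The GC box began 39, 97 and 29 bases before the start of Dhx16, Ddx27 and Ddx56. An ETS core began 14 bases before the Dhx16 start, NRF1 letters began 68 bases before the Ddx27 start, and a CCAAT box began 133 bases before the Ddx27 start and 112 bases before the Ddx56 start. Of the 48 genes, 42 had an entry in the table, and 9 of these had several starts, of which the first was used.

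The promoters of the helicase genes were also set beside those of other genes, as a description. Motifs were searched on both strands in the 250 bases before the start of 27025 genes. A GC box (GGGCGG) was found in 26 of 42 helicase promoters (61.9%), against 32.9% of all promoters and 49.9% of those of genes on the array. An ETS core (CCGGAAG) was found in 14 (33.3%), against 7.05% of all promoters and 10.6% of array genes. Letters of the NRF1 motif (GCGCATG), named after a factor of genes used in every cell, were found in 6 (14.3%), against 3.32% and 4.74%. CCAAT boxes (CCAAT) were found in 20 (47.6%), against 34.5% and 35.7%, and E-boxes (CACGTG, the same on both strands) in 3 (7.14%), against 6.05% and 7.56%. A TATA box (TATAAA) was found only before Ddx58 (2.38%, against 13.0% and 9.02%). The G-rich letters GGGAGGG, the core of the sequence that Zfp281 binds, were found in 3 (Ddx5, Ddx50 and Ddx58, 7.14%), against 19.1% and 24.2%. These are matches of letters in a window, not sites of binding.

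**Figure D1:**
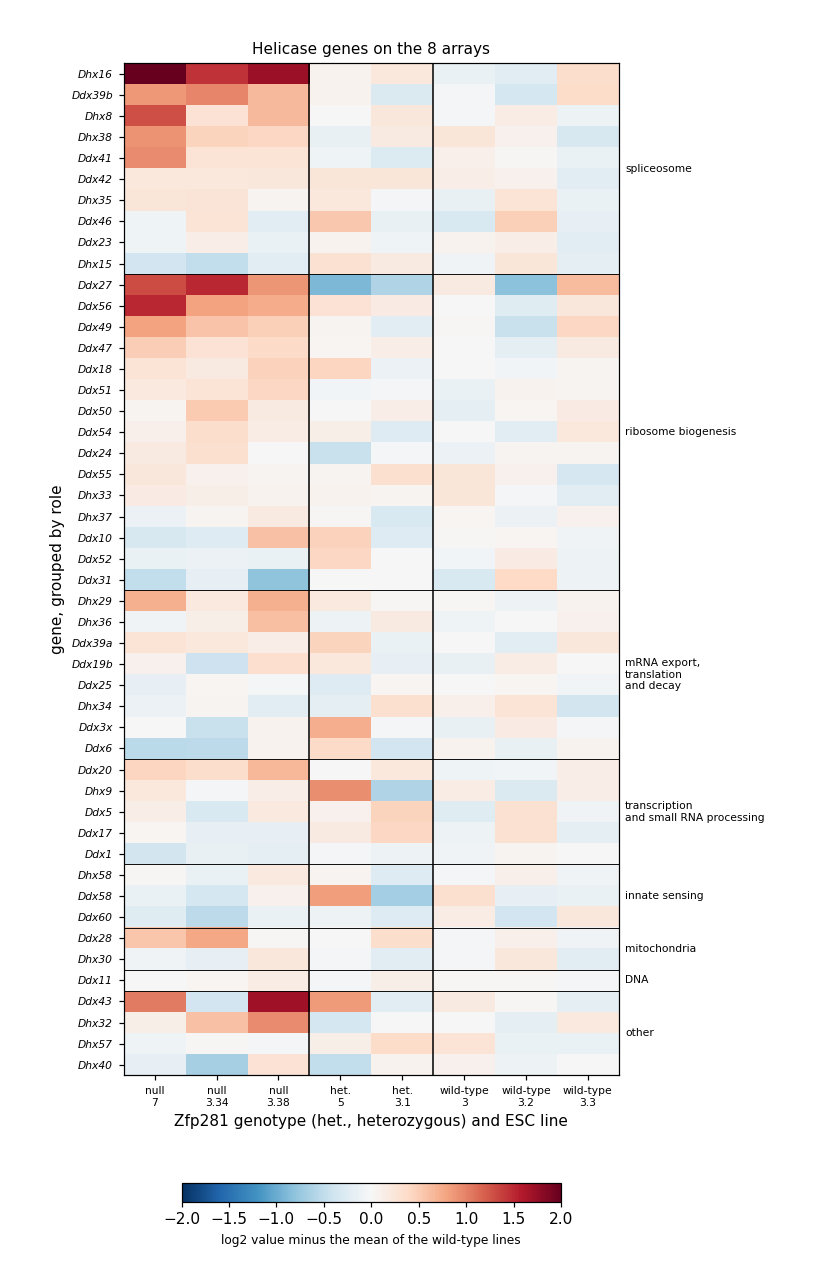
Log2 value of each helicase gene (rows, grouped by role) on each array (columns: null, heterozygous and wild-type lines) minus the mean of the 3 wild-type lines; red is higher, blue is lower, and colours saturate at 2 log2 units. The Dhx16 row is dark red in the 3 null lines, and most rows are pale in every line.

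Dhx16, the counterpart of yeast Prp2, which drives the spliceosome into its catalytic state, had log2 values of 8.88, 8.10 and 8.37 in the null lines, in the order named above, 6.73 and 6.87 in the heterozygous lines, and 6.53, 6.44 and 7.01 in the wild-type lines. All line values are given in that order. The lowest null line lay above the highest of the other lines, and the heterozygous lines lay among the wild-type lines. The log2 fold change was 1.79 between null and wild-type lines (standard error 0.22, adjusted p = 0.030 from limma), a 3.46-fold higher level. It was 1.65 between null and heterozygous lines (adjusted p = 0.057 from limma) and 0.14 between heterozygous and wild-type lines (adjusted p = 0.997 from limma). Its single probe set was called present on all 8 arrays. A fit that included the 3′ minus 5′ difference, which it cannot tell apart from genotype, gave a log2 fold change of 0.88 (adjusted p = 1.00 from limma). Without null line 7, which had the smallest 3′ minus 5′ difference (2.68), the log2 fold change was 1.57 (adjusted p = 0.120 from limma). It was 1.72 without wild-type line 3 (adjusted p = 0.088 from limma) and 1.68 without wild-type line 3.2 (adjusted p = 0.080 from limma). Legends in the study pair null line 7 with wild-type line 3 and null line 3.38 with wild-type line 3.3, each pair from the same litter. Dhx16 was higher in the null line of both pairs, and these 4 lines gave 1.85 with the litter as a block (adjusted p = 0.052 from limma) and 1.85 without it (adjusted p = 0.039 from limma). The difference kept its sign in all of these fits, and among them the call was kept only in the 4 lines without the block.

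**Figure D2:**
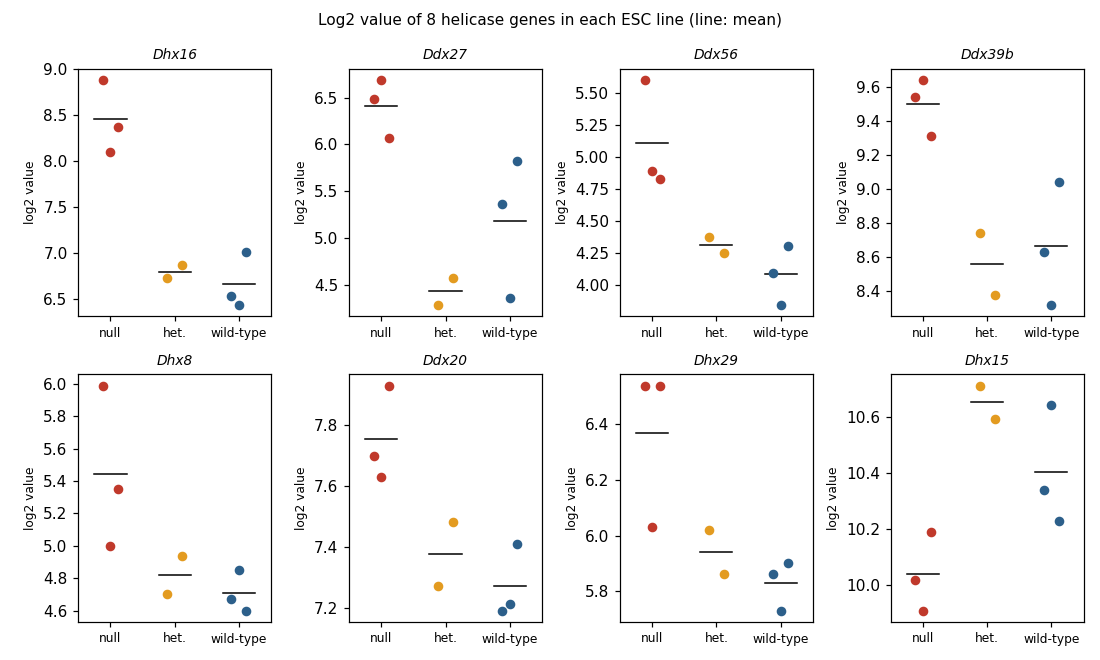
Log2 value (y axis) of 8 helicase genes in null, heterozygous (het.) and wild-type lines, with 1 point per line and a bar at the mean; y axes differ in range and do not start at 0. In Dhx16, Ddx27, Ddx56, Ddx39b, Dhx8, Ddx20 and Dhx29 every null line lies above every wild-type line, and in Dhx15 every null line lies below.

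Over the 48 genes the count called in null against wild-type lines was 1 higher (2.08%) and 0 lower, where 0.693% of all 18193 genes were called higher and 0.44% lower. At an unadjusted p under 0.05 from limma, 14 were higher and 3 lower (29.2% and 6.25%), against 8.67% and 7.71% of all genes. Past 2-fold there were 3 higher (6.25%) and 0 lower, against 1.37% and 1.1% of all genes. Without wild-type line 3.2 only 1 was past 2-fold. The null lines lay entirely above the wild-type lines for 14 genes and entirely below for 3, where 11.1% and 11.2% of all genes did so. The mean was higher in null lines for 32 of 48 genes (66.7%), against 46.8% of all genes, and the median log2 fold change was 0.12, against −0.01. The higher side was therefore fuller than over all genes, while single genes other than Dhx16 did not pass the test. The shares over all genes include many undetected ones. Called present in every line of a genotype were 34 of the 48 genes and 7306 of all genes. Of these 34, 11 had an unadjusted p under 0.05 from limma in either direction, against 2319 of the 7306. Past 2-fold higher were 3, against 227, and null lines lay entirely above for 11, against 1302. The mean was higher for 24, against 3473, with a median of 0.18, against −0.02. The ESC markers were also higher in mean (median 0.68) and the fibroblast markers lower (median −0.46) in null than in wild-type lines, and their part in this lean was not tested. In the fit with the 3′ minus 5′ difference no helicase gene was called, and Dhx32 (1.03) was the only one past 2-fold. Dhx32 was called present in 2 null lines, 0 heterozygous lines and 1 wild-type line. The share of all genes called in that fit is not given here, so these counts are not read as particular to the helicases. All 3 null lines took part, with 30, 31 and 37 of 48 genes above the wild-type mean in lines 7, 3.34 and 3.38. Wild-type lines 3, 3.2 and 3.3 had 25, 28 and 23 such genes. Heterozygous line 5 reached 31, as many as null line 3.34, so a count of that size was not limited to null lines. Heterozygous line 3.1 had 23.

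**Figure D3:**
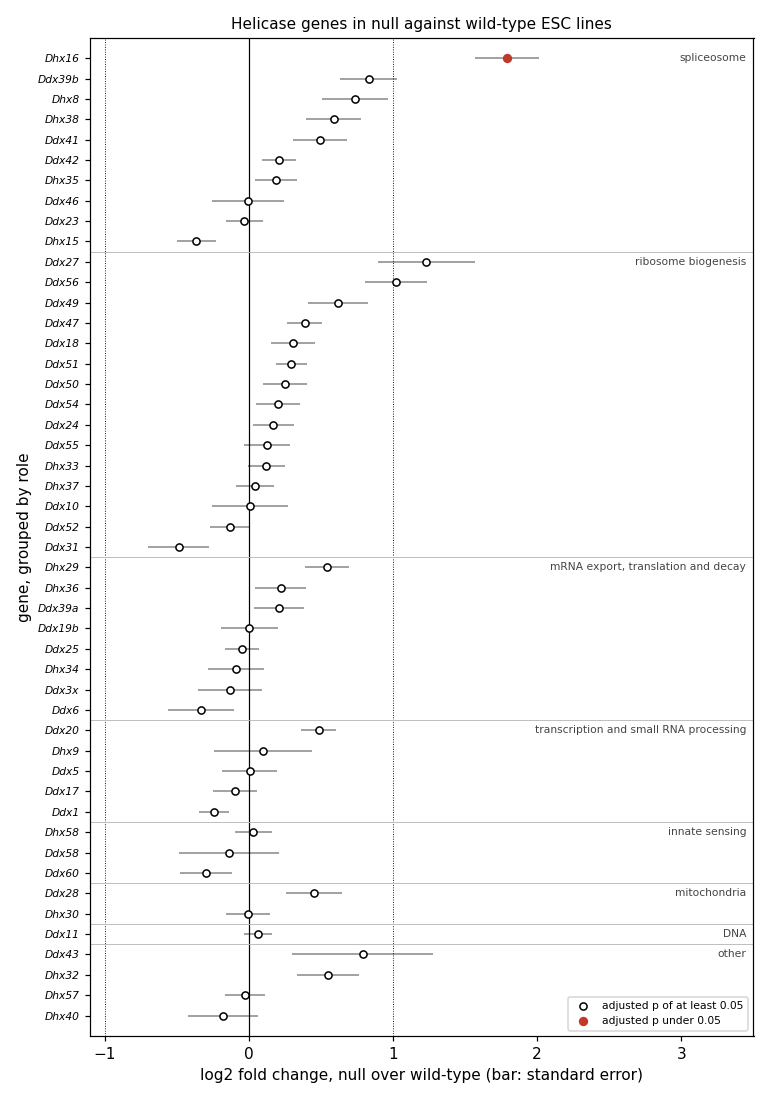
Log2 fold change of null over wild-type lines (x axis, points with standard errors) for the 48 helicase genes, grouped by role (y axis); the filled point is the gene with an adjusted p under 0.05 and dotted lines mark 2-fold. Dhx16, Ddx27 and Ddx56 lie right of the 2-fold line, and no gene lies left of its counterpart; Ddx28, Ddx60 and Dhx38 were called present on no array.

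The 10 helicases of the spliceosome had 7 higher and 3 lower means in null lines, a median log2 fold change of 0.35, and 1 call, Dhx16. Ddx39b (UAP56), which acts in prespliceosome assembly and mRNA export, had log2 values of 9.54, 9.64 and 9.31 in null lines, 8.74 and 8.38 in heterozygous lines, and 8.63, 8.32 and 9.04 in wild-type lines, with null lines above all others. Its log2 fold change over wild-type was 0.83 (standard error 0.19, adjusted p = 0.080 from limma). With the 3′ minus 5′ difference in the fit Ddx39b was at 0.44. Dhx8, the Prp22 counterpart that releases spliced mRNA, had values of 5.99, 5.00 and 5.35 in null lines, 4.70 and 4.94 in heterozygous lines, and 4.67, 4.85 and 4.60 in wild-type lines. The null lines were again highest, with line 3.34 close to the others, and the probe set was called present in 3 of 3 null lines, 0 of 2 heterozygous lines and 1 of 3 wild-type lines. Its log2 fold change over wild-type was 0.74 (adjusted p = 0.151 from limma), or 0.06 with the 3′ minus 5′ difference in the fit, and against the heterozygous lines it was at least 1.55-fold higher (adjusted p = 0.317 from limma). Such a bound sets a group with no present call at its own level or, where that is greater, at the dimmest level called present on the same array. Ddx41, found in catalytic spliceosomes, was called present in 1 null line and no other line, so no bound is given. Its log2 values were 5.19, 4.52 and 4.52 in null lines, 4.16 and 3.97 in heterozygous lines, and 4.35, 4.28 and 4.12 in wild-type lines. Null over wild-type gave 0.49 on these mostly undetected values (adjusted p = 0.238 from limma).

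Dhx15, the Prp43 counterpart that takes spent spliceosomes apart, had a lower mean in null lines. On the probe set of highest mean its log2 values were 10.02, 9.91 and 10.19 in null lines, 10.71 and 10.59 in heterozygous lines, and 10.34, 10.64 and 10.23 in wild-type lines. Null lines lay below all others, narrowly so for line 3.38. Null over wild-type gave −0.36 on the log2 scale (standard error 0.14, adjusted p = 0.227 from limma), and null over heterozygous gave −0.61 (adjusted p = 0.119 from limma). On the gene's other probe set, also present on all arrays, the null lines (10.07, 10.05 and 10.32) overlapped the wild-type lines (10.08, 10.35 and 10.16), and null over wild-type was −0.05. Ddx42, a partner of the U2 particle, was at 0.21, and Dhx35, Ddx46 and Ddx23 lay between −0.03 and 0.19. Of these, Ddx23 was called present in 1 line of each genotype, and Ddx46 in 2 null, 1 heterozygous and 1 wild-type line. The other probe sets of Ddx46 ran from −0.29 to 0.53 for null over wild-type. None of them was called present in every line of a genotype, so a change in Ddx46 or Ddx23 is left undecided. Dhx38, the Prp16 counterpart that acts between the catalytic steps, was called present on no array and gets no fold.

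Most of the 15 helicases of ribosome biogenesis have yeast counterparts, such as the Dbp proteins, Drs1 and Has1. The 15 genes had 13 higher and 2 lower means in null lines, a median of 0.20 and no call. Ddx27, the Drs1 counterpart of large subunit assembly, had log2 values of 6.48, 6.69 and 6.07 in null lines, 4.29 and 4.58 in heterozygous lines, and 5.36, 4.36 and 5.82 in wild-type lines. The null lines were highest, but wild-type line 3.3 came within a short distance of null line 3.38, and the wild-type lines spread widely. The log2 fold change was 1.23 over wild-type (standard error 0.34, adjusted p = 0.113 from limma) and 1.98 over heterozygous lines (standard error 0.38, adjusted p = 0.074 from limma). Over wild-type it was 0.84 in the fit with the 3′ minus 5′ difference, and 0.68 in the 4 lines paired by litter. The other detected probe set of Ddx27 gave a smaller difference, at 0.56 over wild-type (standard error 0.29) and 0.27 over heterozygous lines. On that probe set null line 3.34 lay below wild-type lines 3 and 3.3, so the genotypes overlapped. The rise past 2-fold therefore rests on the probe set of highest mean.

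Ddx56, the Dbp9 counterpart, also of the large subunit, had log2 values of 5.60, 4.89 and 4.83 in null lines, 4.38 and 4.25 in heterozygous lines, and 4.10, 3.85 and 4.31 in wild-type lines. Every null line was above every other line, and line 7 was well above the other null lines. The log2 fold change over wild-type was 1.02 (standard error 0.21, adjusted p = 0.064 from limma). With the 3′ minus 5′ difference in the fit it was 0.14. Over heterozygous lines, none of which had a present call, it was at least 1.73-fold higher (adjusted p = 0.176 from limma). The call was present in 3 of 3 null lines and 1 of 3 wild-type lines. Of the others, Ddx49 was at least 1.54-fold higher in null than in wild-type lines (adjusted p = 0.182 from limma), none of which had a present call. Ddx47, the Rrp3 counterpart of the small subunit, was at 0.39, Ddx18 at 0.30 and Ddx51 at 0.30, and their null lines lay above all wild-type lines. Ddx50, Ddx54, Ddx24, Ddx55, Dhx33, Dhx37 and Ddx10 were between 0.01 and 0.25. Of these, Ddx55 was called present in 1 wild-type line only, and Dhx37 in 1 null and 1 wild-type line. Ddx52, the Rok1 counterpart, was at −0.13, with its null lines at 6.37, 6.38 and 6.36 and its wild-type lines at 6.44, 6.67 and 6.39. Its other probe set, present in every line, gave −0.58, with null lines below all wild-type lines. The other detected probe sets of Ddx18 and Ddx10 gave 0.66 and 0.52, with null lines above all wild-type lines. Ddx31 is given by its values, since its probe sets differed. The one of highest mean had 4.06, 4.40 and 3.75 in null lines, 4.57 and 4.56 in heterozygous lines, and 4.26, 4.96 and 4.46 in wild-type lines, and was called present in only 1 wild-type line. The other was called present in 2 null, 1 heterozygous and 2 wild-type lines and gave 0.06 for null over wild-type.

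Helicases of mRNA export, translation and decay showed no lean to either side, with 4 higher and 4 lower means and a median of −0.02. Dhx29, which helps the small ribosomal subunit to scan structured leaders, had log2 values of 6.54, 6.03 and 6.54 in null lines, 6.02 and 5.86 in heterozygous lines, and 5.86, 5.73 and 5.90 in wild-type lines. Null lines were above all others, with line 3.34 barely so. Its log2 fold change over wild-type was 0.54 (standard error 0.15, adjusted p = 0.123 from limma). The fit with the 3′ minus 5′ difference gave 0.15. Ddx3x, the Ded1 counterpart of translation initiation, had values of 10.49, 10.04 and 10.56 in null lines, 11.22 and 10.45 in heterozygous lines, and 10.34, 10.66 and 10.47 in wild-type lines, so that all genotypes overlapped. Ddx6, the Dhh1 counterpart that represses and turns over mRNA in processing bodies, had values of 6.94, 6.95 and 7.54 in null lines, 7.86 and 7.09 in heterozygous lines, and 7.55, 7.32 and 7.55 in wild-type lines. Null lines 7 and 3.34 were below all wild-type lines and line 3.38 was among them. The log2 fold changes over wild-type were −0.13 for Ddx3x (adjusted p = 0.864 from limma) and −0.33 for Ddx6 (adjusted p = 0.570 from limma), against −0.03 on the other detected probe set of Ddx6. Dhx36, which unwinds G-quadruplexes, Ddx39a, Ddx19b, Ddx25 and Dhx34 lay between −0.09 and 0.22. Of these, Dhx34 was called present in 1 heterozygous line only, and Ddx25 in 2 null, 0 heterozygous and 3 wild-type lines.

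Of the 5 helicases of transcription and small RNA processing, Ddx20 (Gemin3), a subunit of the SMN complex that builds splicing particles, had log2 values of 7.70, 7.63 and 7.93 in null lines, 7.27 and 7.48 in heterozygous lines, and 7.19, 7.21 and 7.41 in wild-type lines. Null lines were above all others, with a log2 fold change of 0.48 over wild-type (standard error 0.12, adjusted p = 0.098 from limma). Ddx1, of the tRNA ligase complex, had 9.39, 9.60 and 9.56 in null lines, 9.74 and 9.65 in heterozygous lines, and 9.69, 9.81 and 9.76 in wild-type lines, the null lines being lowest. Its log2 fold change was −0.24 (standard error 0.10, adjusted p = 0.299 from limma). Its other probe set, a gene-specific one present in every line, turned the sign, with 9.52, 9.83 and 9.73 in null lines, 9.13 and 9.33 in heterozygous lines, and 9.43, 9.31 and 9.69 in wild-type lines, and 0.22 for null over wild-type (standard error 0.14). Ddx5 (p68) and Ddx17 (p72), cofactors of the Drosha microprocessor, were at 0.01 and −0.10, with standard errors of 0.19 and 0.15. Dhx9 (RNA helicase A) was at 0.10, with a standard error of 0.34 and heterozygous lines as far apart as 9.19 and 7.65.

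The sensors of viral RNA were near or under detection. Ddx58 (RIG-I) was called present in 1 line of each genotype, with log2 values of 6.60, 6.37 and 6.81 in null lines, 7.57 and 6.05 in heterozygous lines, and 7.04, 6.56 and 6.59 in wild-type lines, and the genotypes overlapped. Dhx58 (LGP2) was called present in 1 wild-type line and Ddx60 on no array. Ddx28, which acts in the assembly of the mitochondrial ribosome, was called present on no array either, and Ddx11, a DNA helicase of sister chromatid cohesion, was at 0.06. Among genes placed in none of these roles, Ddx43 was the most uneven, with 5.91, 4.49 and 6.57 in null lines, 5.73 and 4.66 in heterozygous lines, and 5.05, 4.89 and 4.68 in wild-type lines. Null line 3.34 was below every wild-type line while the other null lines were above, and the log2 fold change of 0.79 had a standard error of 0.49 (adjusted p = 0.508 from limma). Dhx32 was at 0.55 (adjusted p = 0.242 from limma), Dhx57 at −0.03 and Dhx40 at −0.18 (adjusted p = 0.819 from limma).

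Heterozygous lines stayed close to wild-type. The mean was higher than in wild-type for 31 of 48 genes (64.6%), against 51.3% of all genes. None of the 48 was called by limma, none passed 2-fold and none had an unadjusted p under 0.05, where 0% of all genes were called, 0.335% passed 2-fold and 3.85% had such a p. The log2 fold changes ran between −0.75 for Ddx27 and 0.34 for Ddx3x, and the smallest adjusted p was 0.997 from limma. Ddx42 was the only gene whose heterozygous lines lay above all wild-type lines (2.08%, against 8.44% of all genes), and none had them all below (8.83% of all genes). Null against heterozygous lines gave no call among the 48 genes and 0% of all genes by limma, 13 higher and 1 lower at an unadjusted p under 0.05 (27.1% and 2.08%, against 7.65% and 6.16% of all genes), and 2 genes, Ddx27 and Dhx16, more than 2-fold higher (4.17%, against 1.76%), with none lower (0.66% of all genes). The null lines lay above both heterozygous lines for 15 genes and below both for 7 (31.2% and 14.6%, against 13.3% and 14.5% of all genes), and the mean was higher for 29 of 48 (60.4%, against 45% of all genes). Of the 34 helicase genes called present in every line of a genotype, 10 had an unadjusted p under 0.05 from limma for null against heterozygous lines. Of all 7306 such genes, 1974 did. These comparisons share the null or wild-type arrays with the one above. Fibroblast markers also had lower means in null than in heterozygous lines (17 of 19, median −0.60), and their part in this comparison was not tested.

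Several helicase genes gave different answers from different probe sets. The 48 genes are covered by 109 probe sets, and 16 genes have more than 1 that was called present in every line of some genotype. In 7 of these the log2 fold changes of null over wild-type spread by more than 0.5, in 5 by more than 1, and in 6 (Ddx1, Ddx3x, Ddx5, Ddx17, Dhx30 and Dhx36) they differed in sign. Fitted over all 34945 probe sets that name 1 gene, 4 of the 109 were called higher (3.67%) and 0 lower, against 0.561% and 0.358% of all, and 8 were past 2-fold higher (7.34%) and 0 lower, against 1.31% and 0.861%. The 4 belonged to Dhx16, Dhx30, Ddx54 and Ddx39b, and the genes with a second answer are described here because of that spread.

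Dhx30, a helicase of mitochondrial ribosome assembly, had log2 values of 7.62, 6.93 and 6.76 in null lines, 5.49 and 5.70 in heterozygous lines, and 5.51, 5.38 and 5.50 in wild-type lines on the probe set ending in _a_at, which matches several transcripts of the gene. The log2 fold change there was 1.64 (standard error 0.21, adjusted p = 0.029 from limma). On the brightest probe set, whose ending _x_at marks possible cross-hybridisation, the null lines (7.23, 7.13 and 7.52), heterozygous lines (7.28 and 7.07) and wild-type lines (7.28, 7.53 and 7.09) overlapped, and the log2 fold change was −0.01 (standard error 0.15). Ddx54, the Dbp10 counterpart, had 6.70, 6.38 and 6.25 in null lines, 5.06 and 5.23 in heterozygous lines, and 5.28, 4.89 and 5.55 in wild-type lines on a gene-specific probe set (_at). That probe set gave 1.20 (standard error 0.18, adjusted p = 0.042 from limma), against 0.20 on its _x_at probe set of highest mean.

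Ddx39b showed the same split, with 9.44, 9.07 and 8.81 in null lines, 7.12 and 6.78 in heterozygous lines, and 7.21, 6.39 and 7.89 in wild-type lines on its _at probe set. This gave 1.94 (standard error 0.34, adjusted p = 0.0496 from limma), against 0.83 on the _x_at probe set. Its close relative Ddx39a gave 1.27 on 1 _at probe set (standard error 0.27, adjusted p = 0.070 from limma) and 0.15 to 0.21 on the 4 others, and the high sequence identity of the 2 relatives leaves their _x_at signals uncertain. Dhx9 gave 1.18 on an _at probe set (standard error 0.35, adjusted p = 0.152 from limma) and 0.10 on the _s_at probe set, an ending for oligonucleotides shared among genes. In these 5 genes the larger value came from a probe set other than the one with the highest mean, and the position of each probe set along its transcript was not used here.

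**Figure D4:**
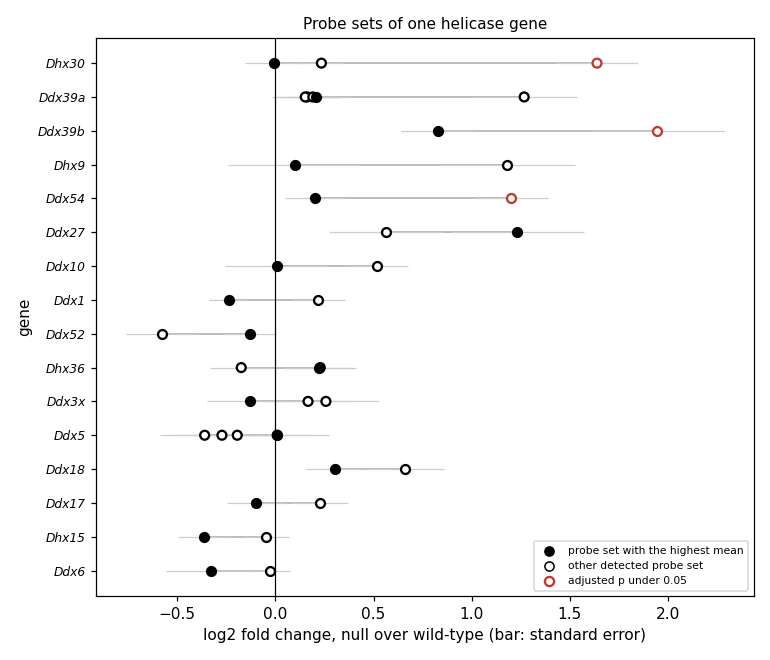
Log2 fold change of null over wild-type lines (x axis, with standard errors) for each detected probe set of the 16 helicase genes with several (y axis, ordered by the spread); black points are the probe sets of highest mean and red rings have an adjusted p under 0.05. In Dhx30, Ddx39a, Ddx39b, Dhx9 and Ddx54 an open point lies more than 1 log2 unit right of the black one.

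The 3′ minus 5′ difference separated the null lines from the rest in the same way as Dhx16 did. It was 2.68, 3.71 and 3.51 in the null lines, 4.49 and 4.80 in the heterozygous lines, and 4.86, 4.75 and 4.23 in the wild-type lines. Null line 7 had the smallest difference and the highest Dhx16, Ddx56 and Dhx8 values of all lines. On the probe sets of highest mean it was the highest null line for 12 of the 48 genes, against 15 for line 3.34 and 21 for line 3.38. On the other probe sets that gave the larger values above, line 7 was the highest of all lines for Dhx30 (7.62), Ddx54 (6.70), Ddx39b (9.44), Ddx39a (9.89) and Dhx9 (6.45). The part of the 3′ minus 5′ difference in these values was not tested.

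**Figure D5:**
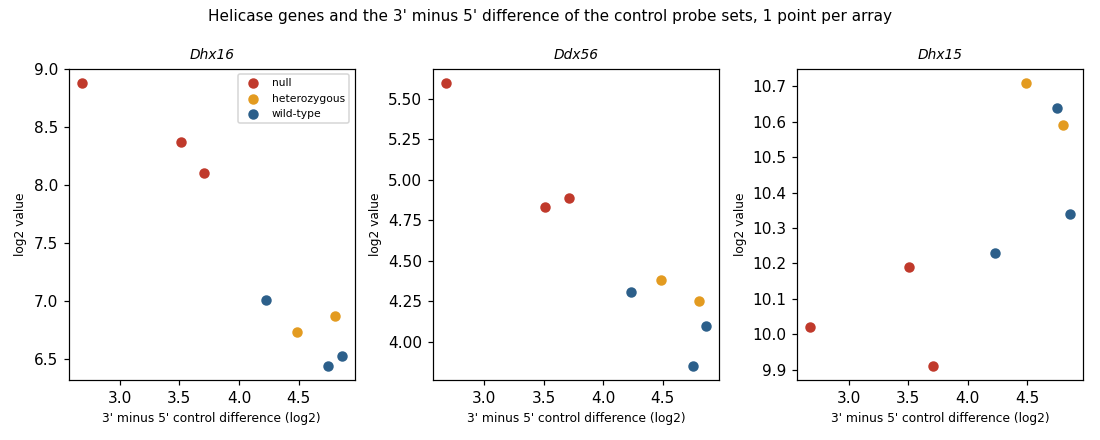
Log2 value of Dhx16, Ddx56 and Dhx15 (y axes) against the Gapdh and beta-actin 3′ minus 5′ difference, averaged (x axis, log2), 1 point per array. The null lines lie at 2.68 to 3.71 and all other lines at 4.23 to 4.86, so genotype and this difference separate the arrays alike.

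The partners of the helicases were read from lists, each with its own counts in null against wild-type lines. Over all 18193 genes 0.693% were called higher and 0.44% lower. Of 48 proteins of the small subunit processome and large subunit assembly, on which the nucleolar helicases act, 2 were called higher and 0 lower, and the median was 0.45, against −0.01 over all genes. Nop16 had 5.55, 5.38 and 5.34 in null lines, 4.36 and 3.89 in heterozygous lines, and 4.18, 3.91 and 4.18 in wild-type lines, and was higher by 1.33 on the log2 scale (adjusted p = 0.030 from limma). Tbl3 was at 1.01 (adjusted p = 0.047 from limma). Of 46 other spliceosome proteins 1 was called higher and 0 lower, and the median was 0.15. The call was U2af1, which recognises the 3′ splice site, with 9.43, 9.02 and 8.61 in null lines, 7.29 and 7.14 in heterozygous lines, and 7.31, 7.39 and 7.92 in wild-type lines. Its log2 fold change was 1.48 (standard error 0.23, adjusted p = 0.037 from limma).

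None of 19 G-patch proteins, the class that switches on Dhx15 and Dhx16, was called, and the smallest adjusted p was 0.083 from limma, for Cherp at 0.53. The 19 genes had 15 higher and 4 lower means and a median of 0.09. Gpkow was lower, at −0.64 over wild-type (adjusted p = 0.278 from limma) and −1.22 over heterozygous lines (adjusted p = 0.112 from limma). Of 22 processing body and decay partners of Ddx6, Patl1, a decapping activator, was called lower at −1.01 (standard error 0.18, adjusted p = 0.047 from limma), with 7.22, 7.41 and 7.55 in null lines, 8.24 and 8.58 in heterozygous lines, and 8.33, 8.75 and 8.13 in wild-type lines. Of 16 relatives with the same helicase core but other names, Dicer1, which cuts microRNA precursors, was called lower at −1.31 (standard error 0.20, adjusted p = 0.037 from limma), with 5.83, 6.46 and 6.20 in null lines, 6.63 and 7.03 in heterozygous lines, and 7.32, 7.74 and 7.36 in wild-type lines. For Patl1 and Dicer1 the null lines were lowest. The 22 partners of Ddx6 had 11 higher and 11 lower means and a median of −0.02. The 16 relatives had 8 higher and 8 lower means and a median of 0.00. Among the relatives Supv3l1 was higher at 1.08 (adjusted p = 0.104 from limma). None of 18 genes of the RIG-I pathway was called, and the smallest adjusted p was 0.093 from limma, for Tbk1 at −0.58. These 18 genes had 6 higher and 12 lower means and a median of −0.07.

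The genes most like Dhx16 over the 8 arrays, by Pearson correlation among 7272 genes, were Zc3h18 (0.996), Chchd4 (0.993), Dap3 (0.991), Acp6 (0.990) and Uqcrfs1 (0.989). These values describe 8 arrays that share the split between null and other lines.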

How the data were processed

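Total RNA of 8 ESC lines was hybridised to 8 arrays. The authors ran RMA over all arrays and deposited the resulting log2 values, which were used here. The deposited table of each array also holds linear signal intensity, its call (present, marginal or absent) and the p-value of that call. The scaling of the signal and the versions of RMA and limma were not given in the sources used here. Groups came from the sample labels, and every log2 column matched the signal of its own array best. Of 45101 probe sets, 34945 name 1 gene in the platform annotation. Genotypes were compared with lmFit and eBayes of limma 3.58.1 under R 4.3.3 (1 mean per genotype, all 8 arrays), with Benjamini-Hochberg adjustment over 18193 genes and a threshold of 0.05, tested on simulated data. A gene counted as detected where its probe set was called present. Levels were not compared between probe sets.

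The helicase genes, role groups and partner lists were chosen with earlier results of these data known. Named genes were those called in any comparison, the highest and lowest fold changes among detected genes, the gene with the smallest p in each role group, and Dhx16, Ddx3x, Ddx5, Ddx6, Dhx9 and Ddx58; others are named where a count or probe set turned on them. The number of lines limits the precision. Pairing by litter came from the study's legends and covers 2 null and 2 wild-type lines; the deviations of same-litter lines from their genotype means correlated at 0.0968 and 0.0382 over 18193 genes (Pearson), and other pairs of a null and a wild-type line at −0.114 to 0.0951. The fit of these 4 lines with the litter as a block was an alternative chosen after seeing the data, since the fixed main fit has no block. Alternatives were other filters, the signal values, a 3′ minus 5′ covariate, other variance models and leaving out lines. Promoters came from RefSeq (GRCm38.p6). Python 3.11.15, pandas 2.3.3, numpy 2.4.6 and matplotlib 3.10.9 were used.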

Additional observations from a re-analysis of the deposited data

How the results depend on the processing

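Of 48 helicase genes, 1 was called in null against wild-type lines. The count was 2 with detected genes only and with an intensity trend and robust variance (Ddx56 beside Dhx16 in both), and 0 with the signal values and with the 3′ minus 5′ covariate. It was 0 to 2 when 1 line was left out: 0 without null line 7 or either of the wild-type lines 3 and 3.2, and 2 without null line 3.34 or wild-type line 3.3. It was 0 without both arrays of lowest share called present, wild-type line 3.2 and heterozygous line 3.1, an alternative chosen after seeing the data. The 3 genes past 2-fold became 5 with the signal values, 1 with the covariate and 1 without both of these arrays, and 1 to 4 when 1 line was left out, with 1 without wild-type line 3.2. In null against heterozygous lines the count of 0 became 2 with detected genes only, 1 with only the 2 genotypes compared and 1 with trend and robust variance, and it was 0 to 2 when 1 line was left out, with 2 without wild-type line 3.2 or wild-type line 3.3. Heterozygous against wild-type lines gave 0 in all settings run. The median of 0.12 became 0.18 with detected genes only and 0.19 with the signal values. The cause was not tested, except that detected genes only means fewer genes tested and leaving out lines means fewer samples. The share of all genes called or past 2-fold in each setting is not given here. A changed count is therefore not read as particular to the helicases.

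Dhx16 stayed higher in null than in wild-type lines in all settings run, but missed the threshold at log2 fold changes of 1.81 with the signal values, 0.88 with the covariate and 1.57 without null line 7. Leaving out wild-type line 3 gave 1.72, leaving out line 3.2 gave 1.68, and leaving out both low arrays gave 1.68, all short of the threshold. In the 4 lines paired by litter, an alternative chosen after seeing the data, the count called was 1 without a block and 0 with the litter as a replicate block, and Dhx16 was at 1.85 in both. The block changed no other helicase call, and no pairing covers the other lines. With 2 or 3 lines a genotype, 1 array each, the spread holds line and array error together.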
